A study of Mus musculus with 4 samples.

Results

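Aminoacyl-tRNA synthetases join each amino acid to its tRNA, the step that sets which residue a codon adds to a protein. One set works in the cytosol, and a second set, encoded by other nuclear genes, is imported to charge the tRNAs of the mitochondrial ribosome. Several cytosolic genes are known targets of ATF4, the transcription factor of the integrated stress response, which binds composite C/EBP-ATF elements. Beta cells are secretory cells that make large amounts of insulin, and their energy supply for secretion depends on mitochondria.

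The genes described here are 35 of the 30905 genes in the count tables, taken by symbol: 19 cytosolic and 16 mitochondrial synthetases. The list was drawn up with earlier results of these data known. All 35 were found. Eprs carries both the glutamate and the proline activity of the cytosol, and Gars and Kars each supply a cytosolic and a mitochondrial enzyme from 1 gene. Methionine's cytosolic enzyme and glutamine's mitochondrial route, which uses an amidotransferase, are outside these sets.

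RNA of single pancreatic islet cells was counted as unique molecules (UMIs, 10x Chromium 3′ chemistry) in 4 libraries, 1 per group. They were a normal control, an early and a late stage of db/db diabetes, and late db/db mice given an intervention, called the control, early, late and intervention libraries. The db/db mouse lacks a working leptin receptor and becomes obese and diabetic. Age was 70 days in the early group and 98 days in the others, and the mice were male. The genotype field reads db/db(C57BL/KsJ) for all 4 samples, the control included, although the growth protocol names C57BL/6 mice too, so the control's strain is not settled by the labels. The matrix of the early library is named as a control in its deposited form, and the sample's own label was followed. What the intervention was, and how many mice gave cells to a library, the labels do not say. Each group being a single library, no difference below has a replicate check or a test. The 95% intervals below are exact and cover counting error only, so higher and lower describe these libraries.

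The libraries held 120934779 to 166034254 UMIs, and 4458 to 5983 cells were kept in each. Cells were clustered here and named from marker genes. The control, early, late and intervention libraries gave 2315, 1412, 810 and 3295 beta-like cells, which were 51.9%, 30.6%, 13.5% and 67.2% of the kept cells. Alpha-like cells numbered 1143, 859, 181 and 632, and delta-like cells 521, 308, 135 and 282. Acinar-like cells numbered 3, 132, 33 and 3, so acinar values come from the early and late libraries alone. The beta-like cells of the libraries lay largely in different clusters: 95.9% of the control's were in cluster 2, 93.0% of the early library's in cluster 15, and 71.6% of the intervention's in cluster 3, while the late library's divided over clusters 15 (43.1%) and 3 (40.3%). A beta-gene cluster that also held plasma and cell cycle genes, and a second small one, were kept out after the data were seen. They made up 1.82%, 2.69%, 7.87% and 3.43% of beta cells for the first and 1.12% in the late library for the second. Late beta-like cells were the deepest, with a median of 86358 UMIs per cell against 41410 to 56710 in the other libraries. Between 3 and 11 barcodes of kept cells were shared by any 2 libraries.

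The promoters are shown because several cytosolic genes are known ATF4 targets. RefSeq windows (GRCm38.p6, 250 bases before to 50 after each start) matched 26 of the 35 genes, 12 cytosolic and 14 mitochondrial. The element TGATGNAA, searched on both strands, stood in 3.97% of all 32851 windows. It stood in 5 of the 12 cytosolic genes (41.7%) and in 0 of the 14 mitochondrial ones. Those 5 encode the enzymes for alanine (Aars), glycine (Gars), isoleucine (Iars), threonine (Tars) and tyrosine (Yars). The 30 bases round 1 match in each gene are given 5′ to 3′ on the gene's strand with the element in capitals. Aars lies at chr8:111033840-111033869, Gars at chr6:55037960-55037989, Iars at chr13:49682126-49682155, Tars on the minus strand at chr15:11399655-11399684 and Yars at chr4:129189895-129189924.
Aars: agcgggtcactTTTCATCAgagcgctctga
Gars: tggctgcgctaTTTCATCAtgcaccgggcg
Iars: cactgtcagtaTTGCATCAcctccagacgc
Tars: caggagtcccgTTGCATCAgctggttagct
Yars: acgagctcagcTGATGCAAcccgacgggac
In Aars, Gars, Iars and Tars the element read as the reverse complement, and in Yars as written. Among 21 integrated stress response genes with a window, 8 held it (38.1%), Asns, Chac1 and Trib3 among them. CGCNTGCG, the NRF1 element, stood in 8.21% of all windows, in 5 of the 12 cytosolic genes (41.7%) and in 4 of the 14 mitochondrial ones (28.6%). CCGGAAGT, an ETS element, stood in 3.89% of all windows and in 1 gene of each set. These are matches of letters and not measured binding sites.

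Levels are given as CPM (UMIs of a gene per 1000000 UMIs), with the mitochondrial genes and 7 islet hormone genes left out of the denominator. They are counts of 3′ ends not scaled to gene length, so levels are compared between libraries and classes and not between genes. The hormone genes held 68.9% of the UMIs of beta-like cells of the control, 59.5% of the early, 53.4% of the late and 59.3% of the intervention library, so the choice of denominator moves every beta-like ratio. On this scale the median gene was below its control level by a log2 ratio of -0.38 in the late, -0.37 in the early and -0.37 in the intervention library. Ratios of the synthetases are therefore read against those medians. The same counts cannot separate less RNA per cell of a gene from more RNA of the others.

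In beta-like cells the 19 cytosolic synthetases summed to 1916 CPM in the control (95% interval 1901 to 1932), 1548 in the early, 1456 in the late and 1286 in the intervention library. The control was highest and the intervention lowest. Over all UMIs, hormones included, the order changed, with sums of 523.2, 578.5, 624.7 and 477.5. The mitochondrial set without Lars2 summed to 300.6, 223.8, 218.4 and 213.4 CPM, so that the 3 db/db libraries lay close together below the control. Over all UMIs these were 82.1, 83.6, 93.7 and 79.2, with the late library highest.

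**Figure D1:**
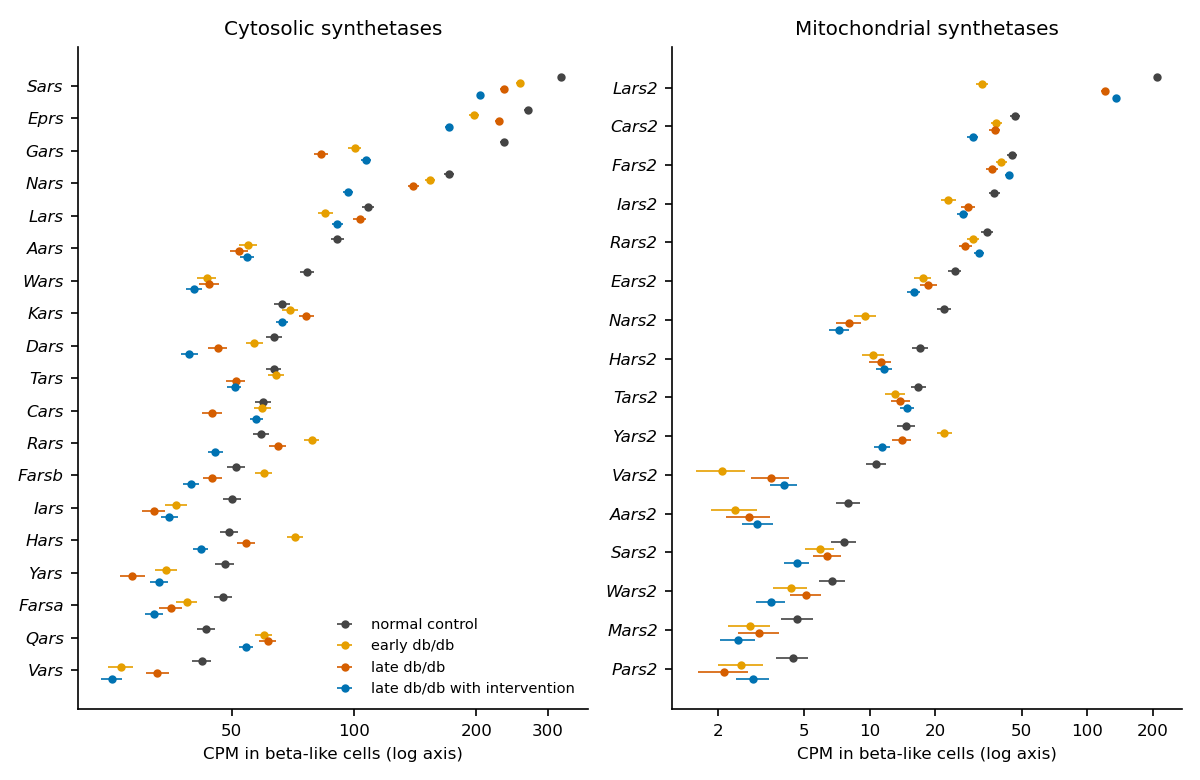
Levels of the 35 synthetase genes in beta-like cells, in CPM on a log axis, 1 point per library with its exact 95% Poisson interval; genes are ordered by their control level within each panel. The control point lies far right of the others for Gars (234.0 CPM), Vars2 (10.7) and Nars2 (21.9), and the early point lies far left for Lars2 (32.8).

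For late db/db against the control, the medians were -0.36 (log2) over the cytosolic genes and -0.40 over the 14 mitochondrial genes with enough counts, against -0.38 over all genes. Mars2 and Pars2, for mitochondrial methionine and proline, averaged below the entry level of 5 CPM. At least 1.5-fold lower were 5 of 19 cytosolic and 5 of 14 mitochondrial genes, where 35% of all 10271 genes compared were as well. At least 1.5-fold higher were 0 of either set, against 8.24% of all genes. After the all-gene median was subtracted, 1 cytosolic gene (Gars) and 3 mitochondrial genes (Vars2, Aars2 and Nars2) remained past 1.5-fold below. Qars alone was past it above. The share of all genes past 1.5-fold after that subtraction is not given, so these counts have no background beside them. Vars2 and Aars2, at 3.50 and 2.78 CPM in late db/db, passed the entry level only through the control. At such levels a gene that entered could only be lower than the control. Over all UMIs, 4 cytosolic genes were past 1.5-fold higher and 1 lower, where 30.2% and 5.64% of all genes were. With TMM factors these were 1 and 1, where 13.4% and 15.7% of all genes were. The median gene moved to 0.31 and -0.06 under these scalings.

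Gars, which charges glycine tRNA in both compartments and lies at chr6:55038007-55079500, stood furthest from the other cytosolic genes. Its beta-like level was 234.0 CPM in the control, 100.4 in the early, 83.1 in the late and 106.8 in the intervention library. All 3 db/db libraries were at least 2.19-fold below the control on this scale. The log2 ratio of late db/db to control was -1.49 (-1.56 to -1.43), with -0.84 over all UMIs and -1.21 under TMM, a scaling factor that trims extreme genes. The same held within single clusters. In cluster 2, Gars stood at 232.6 CPM in the control, 96.1 in the 49 late cells and 119.4 in the intervention. In cluster 3 it stood at 247.3 CPM in the 44 control cells, 92.8 in the 47 early cells, 80.0 in the late and 102.5 in the intervention. Cluster 15 held 9 control cells, too few for a control level. Its Gars levels were 100.6 CPM in the early, 85.4 in the late and 121.4 in the intervention library.

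Gars differed by class. In alpha-like cells its levels were 165.6, 132.6, 142.8 and 156.6 CPM in the control, early, late and intervention libraries. In delta-like cells they were 205.7, 208.5, 203.4 and 186.3 CPM. The late to control ratio was -0.21 (-0.37 to -0.06) in alpha-like and -0.02 (-0.19 to 0.15) in delta-like cells, so neither counting interval reached that of beta-like cells. Beta-like cells had a higher Gars CPM than alpha-like cells in the control and a lower one in the 3 db/db libraries. The alpha-like over beta-like log2 ratio in the control was -0.50, but 0.56 over all UMIs, where Gars was higher in alpha-like cells of every library.

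Aars, for alanine, had 90.9 CPM in the control, 54.9 in the early, 52.2 in the late and 54.5 in the intervention library. Wars, for tryptophan, had 76.6, 43.4, 44.0 and 40.4 CPM in that order. Yars, for tyrosine, had 48.0, 34.5, 28.4 and 33.2 CPM. In these genes the control stood apart and the db/db libraries were near one another. Their late to control ratios were -0.80, -0.80 and -0.75, and Iars, for isoleucine, followed at -0.64 with 50.1, 36.5, 32.1 and 35.1 CPM. With all UMIs as denominator the Aars, Wars and Yars ratios shrank to -0.15, -0.15 and -0.10, and Iars turned to 0.01. Wars in alpha-like cells lay between 16.7 and 20 CPM and in delta-like cells between 34.2 and 35.3, with overlapping counting intervals in each class.

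Sars charges serine tRNA, and Eprs is a core subunit of the multisynthetase complex. Sars had 323.7, 256.1, 233.7 and 204.6 CPM in the 4 libraries in the order above. Eprs had 267.7, 197.4, 227.5 and 171.0 CPM. Both were lowest in the intervention. Nars, for asparagine, was also lowest there, with 171.4, 154.0, 140.0 and 96.7 CPM, as were Dars, for aspartate, with 63.5, 56.8, 46.2 and 39.3, and Vars, for valine, with 42.2, 26.7, 32.8 and 25.3. Farsa, the alpha subunit of the phenylalanine enzyme, had 47.6, 38.7, 35.4 and 32.2 CPM.

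Qars and Kars did not share the lower level. Qars, for glutamine, had 43.2, 60.0, 61.3 and 54.2 CPM. It was above the control in every db/db library, by a log2 ratio of 0.50 (0.40 to 0.61) in the late one. Kars, the lysine enzyme of both compartments, had 66.5, 69.5, 76.3 and 66.5 CPM. Hars, for histidine, had 49.2, 71.6, 54.1 and 41.9 CPM, and Rars, for arginine, had 59.0, 78.6, 64.8 and 45.6. Both were highest in the early library and lowest in the intervention. Farsb, the beta subunit of the phenylalanine enzyme, had the same pattern, with 51.2, 60.0, 44.8 and 39.7 CPM. Lars, for leucine, had 108.4, 85.0, 103.2 and 91.0 CPM and Cars, for cysteine, 59.8, 59.5, 44.7 and 57.4, both highest in the control. Tars, for threonine, had 63.4, 64.4, 51.1 and 50.8 CPM, lower in the late and intervention libraries. The Hars gene overlaps Hars2 on the opposite strand, and the labels do not say whether counting used the strand.

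**Figure D2:**
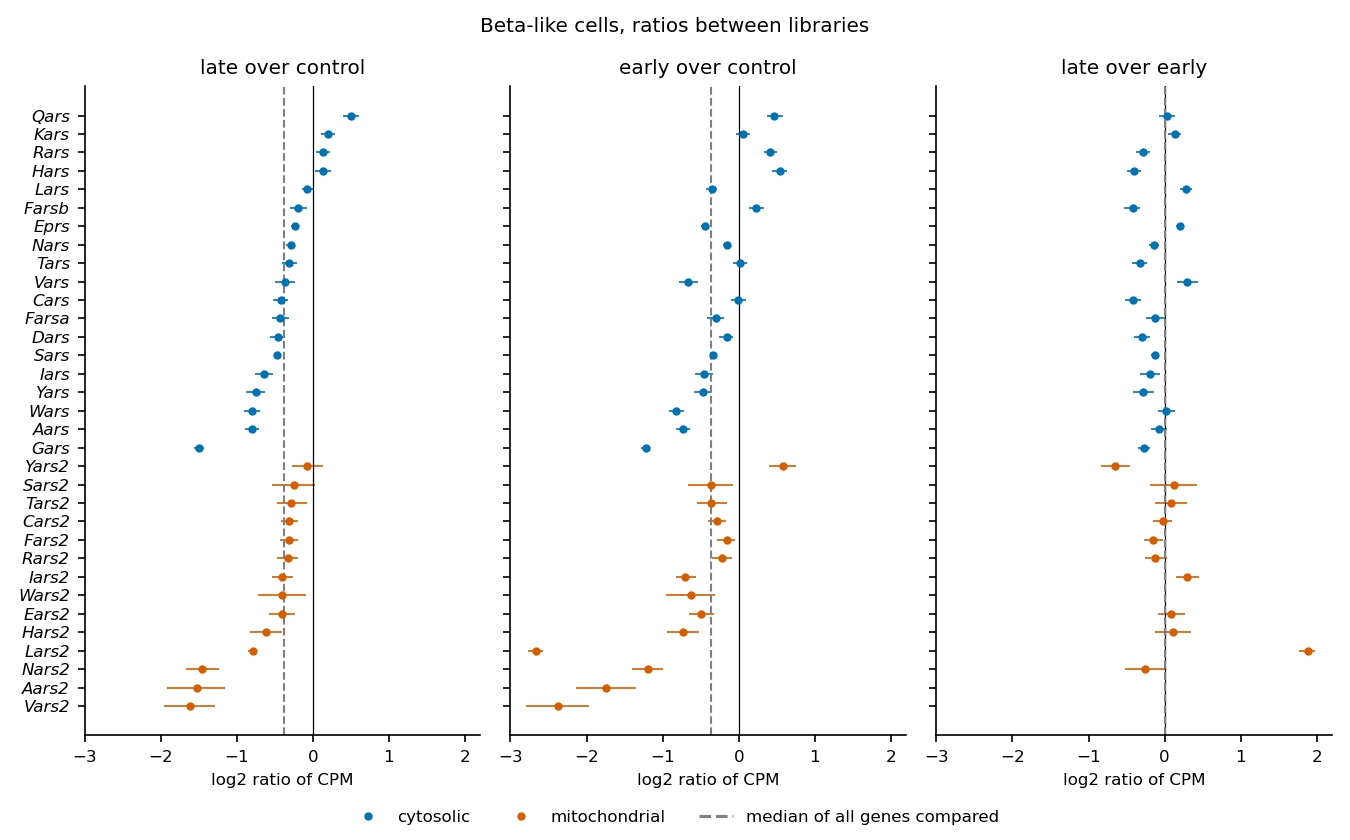
Log2 ratios of CPM in beta-like cells with exact 95% counting intervals for late over control, early over control and late over early; cytosolic genes are blue, mitochondrial genes orange, the solid line is 0 and the dashed line the median of all genes compared. Most points lie near the dashed line; Gars, Vars2, Aars2 and Nars2 lie left of it against the control, and Lars2 reaches 1.88 in late over early.

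The cytosolic genes with and without the C/EBP-ATF element had different medians in beta-like cells, with overlapping ranges. For late over control, the median log2 ratio was -0.75 (range -1.49 to -0.31) over the 5 genes with a match and -0.23 (-0.47 to 0.50) over the 7 without. In alpha-like cells the medians were -0.07 and -0.10, and in delta-like cells -0.05 and 0.13. For early over control in beta-like cells they were -0.47 and -0.16, and for the intervention over the late library 0.13 and -0.19. Against the control, the intervention gave -0.53 and -0.56. Wars, which was as low as Aars, had no window to read. These genes are few and the difference is a description.

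**Figure D3:**
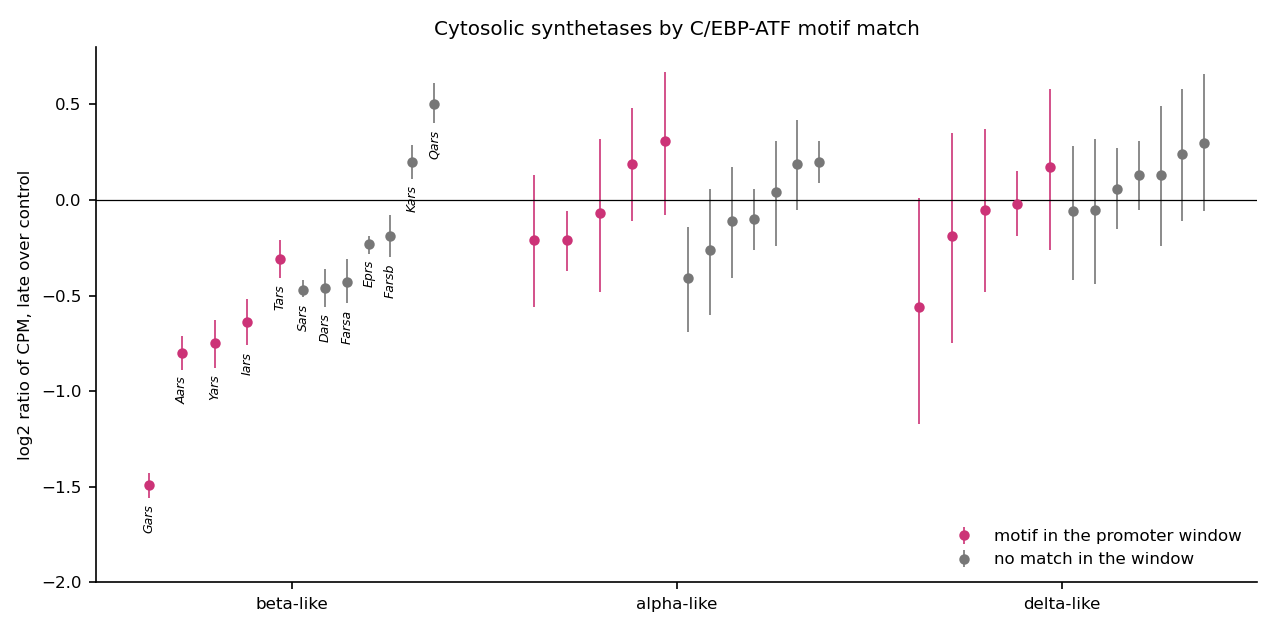
Log2 ratios of CPM, late db/db over control, for the 12 cytosolic genes with a promoter window, with exact 95% counting intervals; magenta marks the 5 genes with the C/EBP-ATF element and grey the 7 without. In beta-like cells magenta points run from -1.49 to -0.31 and grey points from -0.47 to 0.50, while both colours lie on either side of 0 in alpha- and delta-like cells.

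Among mitochondrial genes, Vars2 had the lowest late to control ratio in beta-like cells. Vars2 charges valine tRNA in the organelle and lies at chr17:35655634-35667592, with the gene Gm20483 on the opposite strand. Its levels were 10.7, 2.08, 3.50 and 4.02 CPM in the control, early, late and intervention libraries, from 341, 60, 97 and 190 UMIs. In alpha-like cells they were 11.4, 2.41, 4.07 and 4.16 CPM, and in delta-like cells 12.7, 4.25, 7.12 and 4.53. The control was highest and the early library lowest in each of the 3 classes, in delta-like cells within counting error of the intervention (10 and 8 UMIs). The late to control ratio was -1.61 (-1.95 to -1.28) in beta-like, -1.49 (-2.48 to -0.64) in alpha-like and -0.84 (-1.79 to 0.01) in delta-like cells, the last reaching 0 within counting error at 14 and 66 UMIs.

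Nars2, for mitochondrial asparagine, differed between classes. It had 21.9, 9.55, 8 and 7.23 CPM in beta-like cells, but 9, 9.36, 11.5 and 9.06 in alpha-like and 10.0, 6.37, 8.64 and 7.36 in delta-like cells. On this scale the control's beta-like cells alone stood high. The alpha-like over beta-like log2 ratio was -1.28 in the control and 0.53 in the late library, but -0.22 and 0.76 over all UMIs, so the order of the classes depends on the denominator. The beta-like late to control ratio was -1.45 (-1.67 to -1.23), and the alpha-like one was 0.36 (-0.24 to 0.92). Aars2, for mitochondrial alanine, had 7.97, 2.39, 2.78 and 3.04 CPM in beta-like cells and 5.65, 3.21, 3.39 and 2.69 in alpha-like cells.

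Most other mitochondrial genes lay within 1.5-fold of the median gene. Hars2, for histidine, had 17.1, 10.3, 11.2 and 11.6 CPM, and Iars2, for isoleucine, had 37.3, 23.0, 28.4 and 26.7. Wars2, for tryptophan, had 6.71, 4.33, 5.08 and 3.51 CPM, and Sars2, for serine, 7.59, 5.88, 6.38 and 4.61. Cars2, for cysteine, had 46.4, 38.1, 37.5 and 29.7 CPM. Each was highest in the control on this scale, where the median gene of the db/db libraries was also below its control level. Over all UMIs the mitochondrial set without Lars2 summed highest in the late library, as given above. Ears2, for glutamate, ranged from 15.9 to 24.7 CPM, Fars2, for phenylalanine, from 36.4 to 45.1, Rars2, for arginine, from 27.5 to 34.6 and Tars2, for threonine, from 13.1 to 16.7, all 4 also highest in the control. Mars2 and Pars2 lay between 2.13 and 4.64 CPM. Yars2, for tyrosine, was the exception, with 14.7, 22.0, 14.0 and 11.4 CPM, highest in the early library. Its early to control log2 ratio was 0.58 in beta-like and 0.52 in alpha-like cells.

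For the early library against the control, 4 of 19 cytosolic and 7 of 14 mitochondrial genes were at least 1.5-fold lower in beta-like cells, where 38.2% of all genes were, and 0 of either set were at least 1.5-fold higher, where 9.94% were. The medians were -0.30 and -0.56, which is 0.07 above and 0.20 below the median of all genes. Relative to that median, Hars, Rars, Qars and Farsb were past 1.5-fold above and Gars below. Relative to it, Yars2 was above and Lars2, Vars2, Aars2 and Nars2 below. Vars2 and Aars2 again passed the entry level only through the control. So did Wars2, which is in the count of 7 lower genes. The all-gene share on this relative scale is not given. Under TMM factors the cytosolic median was 0.02, and 3 cytosolic genes were past 1.5-fold higher and 1 lower, where 19.1% and 20% of all genes were. Over all UMIs these were 4 and 1, where 25.4% and 14.6% of all genes were.

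Lars2, which charges leucine tRNA in mitochondria, carried the largest beta-like ratios of these genes, against the control in the early library and between the early and late ones. In beta-like cells it had 208.3 CPM (203.3 to 213.4) in the control, 32.8 (30.7 to 34.9) in the early, 120.3 (116.2 to 124.4) in the late and 135.5 (132.2 to 138.8) in the intervention library. The late level was above the early one by 1.88 on the log2 scale (1.77 to 1.98) and differed from the control by -0.79 (-0.85 to -0.73). Within cluster 2 the Lars2 levels were closer, at 208.1 CPM in the control, 190.1 in the 49 late cells and 209.6 in the intervention. Cluster 3 held far more late cells. There Lars2 had 250.3 CPM in the 44 control cells, 50.2 in the 47 early cells, 129.4 in the late and 133.7 in the intervention. In cluster 15, with most of the early cells, it had 32.1 CPM in the early, 106.7 in the late and 99.3 in the intervention library. Over all beta-like cells and on this scale, Lars2 in late db/db was thus higher than in the early library and lower than in the control. For late over control the median gene was itself at -0.38, and 21.5% of genes had a lower ratio than Lars2. Over all UMIs Lars2 had 51.6 CPM in the late library and 56.9 in the control. Of the 9985 genes compared between late and early db/db, 9972 had a lower ratio than Lars2.

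The low early level of Lars2 was found in every class with at least 30 cells in the early and another library. In alpha-like cells it had 137.9, 32.1, 192.0 and 145.9 CPM in the same order, and in delta-like cells 210.9, 49.7, 193.2 and 195.9. In acinar-like cells it was 71.3 in the early and 630.0 in the late library. Late over early ratios ran from 1.88 to 3.14 over 10 classes, endothelial-, macrophage-, fibroblast-, pericyte-, B- and T and NK-like cells among them. Against the control, late db/db was lower in beta-like cells, higher in alpha-like cells by 0.48 (0.34 to 0.61), and within counting error in delta-like cells at -0.13 (-0.30 to 0.04). In macrophage-like cells it was higher by 0.45 (0.16 to 0.75), but the median gene there was at 0.29 and 59.9% of genes lay below Lars2. In alpha-like cells the median gene was at -0.06 and 93.0% of genes lay below Lars2.

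Another transcript was also lowest in the early library. Gm42418, a noncoding RNA annotated at chr17:39846958-39848788 in a region known to hold ribosomal RNA sequence, had 4557, 485.6, 3083 and 3023 CPM in beta-like cells in the same order. Its late over early ratios ran from 2.28 to 3.04 over the same 10 classes. Lars2 lies on another chromosome, at chr9:123366927-123462666. Over the classes and libraries with at least 30 cells there were between 2.22 and 7.03 Lars2 UMIs for each 100 of Gm42418. In beta-like cells that number was 4.57, 6.75, 3.90 and 4.48 in the control, early, late and intervention libraries. AY036118 and Gm26917, noncoding RNAs beside or within the Gm42418 locus, had late over early ratios of -0.22 and -0.07 in beta-like cells. Over the 10 classes AY036118 ran from -0.30 to 0.91, highest in B-like cells, and Gm26917 from -0.33 to 1.41, highest in T and NK-like cells, so both stayed below Lars2 and Gm42418 but were higher in the late library in some classes. Malat1, an abundant nuclear RNA, was 26359, 11632, 24988 and 25208 CPM in beta-like cells, also low in the early library. Of 9468 genes measured in beta-, alpha- and delta-like cells, 3 were at least 3-fold lower in early db/db than in each other library in all 3 classes: Lars2, Gm42418 and the histone gene Hist1h2ap, which were named after their values were seen. Age, group and library cannot be told apart for early db/db, and the part of each in the low Lars2 level was not tested.

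**Figure D4:**
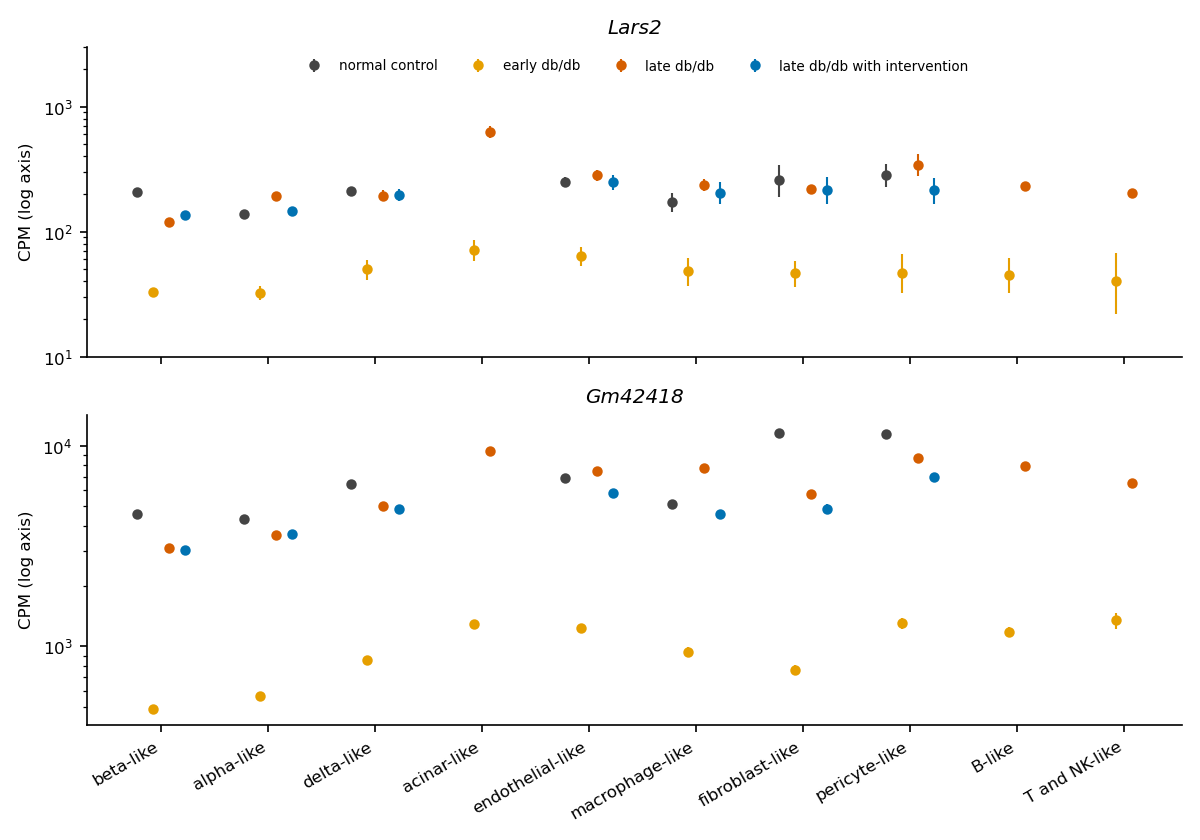
CPM of Lars2 (top) and Gm42418 (bottom) on log axes by cell class, with 1 point per library of at least 30 cells and exact 95% Poisson intervals. In every class the early db/db point lies lowest for both genes, at 32.8 CPM for Lars2 in beta-like cells against 120.3 to 208.3 in the other libraries.

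From early to late db/db, no other synthetase of either set moved as far in beta-like cells. At least 1.5-fold higher were 0 cytosolic genes and 1 mitochondrial gene (Lars2) of 11 compared, where 2.38% of all genes were, and at least 1.5-fold lower were 0 cytosolic genes and 1 mitochondrial gene (Yars2), where 1.55% were. The medians were -0.14 over the cytosolic and 0.08 over the mitochondrial genes, with 0.00 over all genes. Vars, Lars and Eprs were the highest cytosolic ratios, at 0.30, 0.28 and 0.20. Farsb, Cars and Hars were the lowest, at -0.42, -0.41 and -0.40.

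The intervention library differed from the late one by less than 1.5-fold in each of the 19 cytosolic and 11 mitochondrial genes compared in beta-like cells. Of all genes, 4.62% were at least that much higher and 3.39% at least that much lower. The cytosolic median was -0.18 against 0.03 over all genes, and the mitochondrial median was -0.09. Gars and Cars, for cysteine, were highest at 0.36 each, and Nars (-0.53), Rars (-0.51) and Eprs (-0.41) were lowest. Gars stayed well short of the control, with 106.8 CPM against 234.0. Lars2 had a ratio of 0.17 (0.11 to 0.23) to the late library, and -0.04 with all UMIs as denominator.

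Against the control, the intervention had 8 of 19 cytosolic and 8 of 14 mitochondrial genes at least 1.5-fold lower, where 32.1% of all genes were, and 0 of either set higher, where 8.13% were. The medians were -0.53 and -0.63, which is 0.16 and 0.26 below the median of all genes. Relative to that median, Gars, Nars2, Vars2 and Aars2 were past 1.5-fold below and Qars above. Here too Vars2 and Aars2 passed the entry level only through the control. So did Wars2 and Sars2, which are in the count of lower genes, and such genes could only be lower. The all-gene share on the relative scale is not given. Over all UMIs 1 cytosolic gene was past 1.5-fold higher and 1 lower, where 18.0% and 7% of all genes were. This comparison shares its control library with the others against the control.

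**Figure D5:**
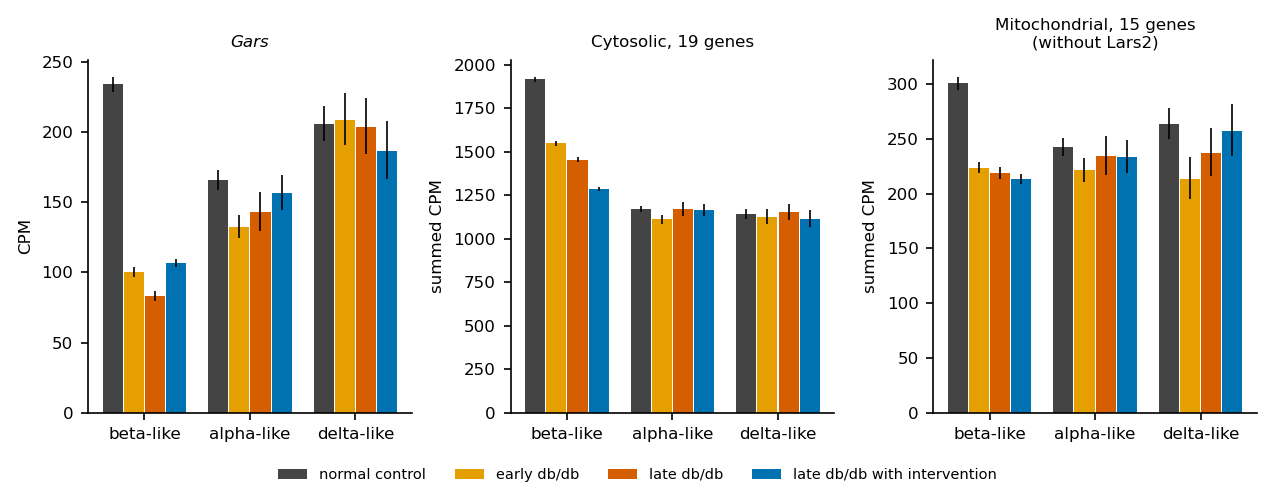
CPM of Gars and summed CPM of the 19 cytosolic and of the 15 mitochondrial genes without Lars2, by endocrine class and library, with exact 95% Poisson intervals. Gars and the cytosolic sum have their highest bar in the control in beta-like cells, while the alpha- and delta-like cytosolic sums lie between 1112 and 1170.

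With the hormone genes left out of the denominator, alpha- and delta-like cells kept nearly level cytosolic sums. Cytosolic genes summed to 1170, 1112, 1170 and 1166 CPM in alpha-like cells and to 1143, 1128, 1154 and 1116 in delta-like cells, in the order control, early, late and intervention. Over all UMIs the alpha-like sums were 666.0, 527.7, 589.7 and 600.5, highest in the control. The delta-like ones were 684.4, 643.8, 727.9 and 664.3, so the level sums depend on the denominator. For late over control, 0 of 19 cytosolic genes passed 1.5-fold in either direction in either class, with medians of -0.02 and -0.05. Of all genes, 4.81% were at least that much higher and 7.12% lower in alpha-like cells, and 4.57% and 9.66% in delta-like cells. The mitochondrial genes without Lars2 had medians of 0.09 and -0.22, and Vars2 was the one gene of 11 past 1.5-fold, lower in both classes. In alpha-like cells, at 4.07 CPM in late db/db, Vars2 passed the entry level only through the control and could only be lower. In delta-like cells its counting interval reached 0. Without the cells led by Ppy, the pancreatic polypeptide gene, the alpha-like mitochondrial median was -0.03. Wars2 in alpha-like cells was 1.05 above late db/db in the intervention (0.35 to 1.8), from 66 and 23 UMIs.

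The control's beta-like cells held more of the cytosolic set than alpha-like cells, by 1.64-fold in summed CPM. That difference was 1.39-fold in early db/db, 1.24-fold in late db/db and 1.10-fold in the intervention. With all UMIs as denominator the alpha-like sum was the higher one in the control and the intervention, by 0.35 and 0.33 on the log2 scale. Hormone genes held 39.2% of the control's alpha-like UMIs and 68.9% of its beta-like ones. Wars was 3.85-fold higher in beta-like than in alpha-like cells of the control, and higher in beta-like cells in the other libraries too.

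Acinar-like cells, which make digestive enzymes, were compared with beta-like cells within the early library. Digestive enzyme genes held 81.0% of their UMIs. The cytosolic set summed to 278.7 CPM against 1548 in beta-like cells, a log2 ratio of -2.47 (-2.61 to -2.34), while the median gene had -3.35. With the digestive enzyme genes also out of the denominator, the sums were 1627 and 1550, a log2 ratio of 0.07 (-0.07 to 0.21). The median gene then had -0.75. Genes could enter these medians through their beta-like counts alone. The acinar difference thus depends on the denominator, and on the last one it was within counting error of 0. Vars had the highest ratio of the 19, with 26.8 CPM against 26.7 in beta-like cells, and Eprs the lowest, with 12.4 against 197.4. The mitochondrial set without Lars2 summed to 34.7 CPM, from 53 UMIs, against 223.8. In the 33 late acinar-like cells the cytosolic sum was 303.5 CPM (256.1 to 357.1), against 278.7 (252.8 to 306.4) in the early ones, a log2 ratio of 0.12 (-0.16 to 0.40). With digestive enzyme genes also left out the sums were 1137 and 1627, and the ratio turned to -0.52 (-0.80 to -0.24).

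Partners of the synthetases in beta-like cells were read beside them. In the multisynthetase complex, the scaffold Aimp1 had 138.3 CPM in the control, 165.0 in the early and 159.4 in the late library. Aimp2, another scaffold, had 35, 33.2 and 24.8, and Eef1e1, a further subunit, had 25.8, 41.0 and 31.5. None of these was past 1.5-fold in late db/db over control, and Eef1e1 was higher in early db/db. Of the subunits of the mitochondrial glutamine amidotransferase, Gatb was low with 10.7, 6.40 and 5.05 CPM, and Qrsl1 had 8.75, 9.41 and 8.90.

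Of 21 integrated stress response genes compared in late db/db over control, 4 were at least 1.5-fold higher and 7 lower, with a median of -0.31, where 8.24% and 35% of all genes were. Atf5, a transcription factor of that response, had 348.1 CPM in the control and 108.3 in late db/db, and Pycr1, which makes proline, had 43.3 and 102.1. Vldlr, a lipoprotein receptor, had 63.1 and 32.0, and Phgdh, which starts serine synthesis, had 49.5 and 26.1. In early db/db over control the list had 8 higher and 3 lower of 23, with a median of 0.18, where 9.94% of all genes were higher and 38.2% lower. Chac1, which degrades glutathione, had 13.8 CPM in the control, 63.0 in the early and 24.9 in the late library, and Trib3, an inhibitor of the response, had 2.79, 18.4 and 5.48. Both were named after their values were seen. The 5 cytosolic synthetases with the C/EBP-ATF element had early to control ratios from -1.22 to 0.02. Their median was -0.47, where that of all genes was -0.37. Whether the synthetases and the stress response genes are linked here was not tested.

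For late over control the synthetases' medians lay near that of all genes, -0.38, and several other lists of protein synthesis genes lay above it. The median was 0.50 over 85 cytosolic ribosome genes, taken by symbol and so including some S6 kinase genes. Of these, 29 were at least 1.5-fold higher and 4 lower, where 8.24% and 35% of all genes were. The median was -0.11 over 18 cytosolic translation factors, -0.10 over 77 mitochondrial ribosome genes and -0.17 over 13 mitochondrial translation factors. For tRNA modification and export it was -0.40 over 13 genes, near the synthetases' -0.36 and -0.40. Eef1b2, an elongation factor subunit, had 684.3 CPM in the control and 1307 in late db/db. Xpot, the tRNA exporter, had 58.5 and 36.4.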

How the data were processed

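The deposited matrices hold UMI counts, whole numbers per gene and barcode with no normalization by the authors. The submitters' processing notes name CASAVA 1.8, Cell Ranger, Seurat and mm10, and the file headers give software version 3.0.0. The annotation behind the counts is not stated there. No deposited barcode had fewer than 500 UMIs.

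Barcodes with at least 1000 UMIs, 500 genes and at most 20% mitochondrial UMIs were kept. Scrublet in scanpy 1.11.5 scored doublets. Its automatic threshold marked 2 cells in the intervention library, so the highest scores were removed at 0.8% per 1000 cells (171, 184, 318 and 209 cells). Clustering used 2000 variable genes (synthetase, hormone, mitochondrial and ribosomal protein genes left out), 30 components, 15 neighbours and Leiden resolution 1. Clusters took the class with most markers among 25 leading genes and at least 3 raised markers. No annotation by the authors was used.

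UMIs were summed per class and library. A gene entered with at least 50 UMIs in the pair and a mean of 5 CPM, and was called at 1.5-fold. Levels carry exact Poisson and ratios exact conditional binomial 95% intervals, checked on simulated counts. Alternatives were other denominators, TMM (edgeR 4.0.16), entry and cell filters, doublets kept, equal weight per cell and free RNA subtracted (the profile of barcodes below 1000 UMIs, scaled by Gcg or Sst to 2.48% to 5.67% of beta-like UMIs). Levels in all 4 libraries are given for members past 1.5-fold in at least 1 of the 5 beta-like comparisons and always for Lars2, Gars, Kars, Eprs, Aars and Wars. Related genes are named by the largest late to control ratio, at most 4 a list. Chac1 and Trib3 were named beyond this rule, after their values were seen. Members and lists were chosen with earlier results of these data known. Gene positions are from GENCODE M21 (GRCm38). A further promoter match is not reported here.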

Additional observations from a re-analysis of the deposited data

How the results depend on the processing

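Medians of the cytosolic and mitochondrial sets in beta-like cells depended on the denominator. With all UMIs, hormones included, the late over control medians turned to 0.29 (cytosolic) and 0.33 (mitochondrial), the early over control ones to 0.15 and 0.17, and the cytosolic late over early one to 0.06. The cytosolic intervention over late median was -0.39, and the intervention over control medians were -0.09 and -0.04. Iars and Hars2 turned to 0.01 and 0.04 in late over control. With TMM factors the late over control medians were -0.08 and -0.05, the early over control ones 0.02 and -0.04, and the intervention over control ones -0.27 and -0.23. The median of all genes moved with them, and for late over control was 0.31 with all UMIs and -0.06 with TMM. Counts of genes at least 1.5-fold lower moved too. For late over control 1 cytosolic and 0 mitochondrial genes were lower under either scaling, where 5.64% (all UMIs) and 15.7% (TMM) of all genes were. Of the mitochondrial genes, however, 8 (all UMIs) and 7 (TMM) entered, against 14 with the hormone genes left out. Vars2, Aars2 and Nars2 averaged below the 5 CPM entry on these scales, so the 0 does not cover them. The mitochondrial medians above are over these fewer genes too. For early over control these were 1 cytosolic gene under either, and 1 (all UMIs) or 2 (TMM) mitochondrial genes. For intervention over control they were 1 (all UMIs) or 2 (TMM) cytosolic and 0 mitochondrial genes. With all UMIs 4 cytosolic genes were higher in late and in early over control, where 30.2% and 25.4% of all genes were. In intervention over late 3 cytosolic genes were lower, where 8.45% of all genes were.

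With entry at 50 CPM in the higher library, Lars2 alone was left of the mitochondrial set, at -0.79 for late over control, -2.67 for early over control, 1.88 for late over early and 0.17 for intervention over late, and the cytosolic early over control median was -0.16. Equal weight per cell gave a mitochondrial intervention over late median of 0.10. The acinar-like over beta-like sums had log2 ratios of -1.09 and -1.30 with all UMIs and 0.07 and -0.15 with digestive enzyme genes also left out. No paired analysis was possible because each group is 1 library, and no library could be left out. Genes under 5 CPM are limited by depth.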
